A study of Saccharomyces cerevisiae with 10 samples.

Results

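The cassette control of a budding yeast series showed where along the genome a crosslinked protein, taken to be RNA polymerase II (Pol II), gave signal in cells that had received no rapamycin. It comprises 2 of the 10 samples, chosen by their label as strain NabCassette (2876) without rapamycin, and each holds a value for the same 6677 features. The libraries are titled Nab_WT_1_PARCLIP and Nab_WT_2_PARCLIP and are called libraries 1 and 2 here. The other 8 samples (NabFRB with and without rapamycin, NabHTB without it and Rpb2HTB_NrdFRB with it) enter no value here. Cells of Saccharomyces cerevisiae were grown in CSM-Limiting Ura medium to an OD of 1, irradiated with UV light and broken, and the RNA bound to an HTB-tagged protein was sequenced by PAR-CLIP, with the molecule given as nuclear RNA. The labels of these libraries do not name the tagged protein, while the design text of the series names Pol II, and the make-up of the cassette is also not given in the sources used here. Nothing says that the libraries came from separate cultures, so the spread between them may be technical. With 1 group and 2 libraries no comparison of conditions was made and no p-value is given.

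Pol II makes the messenger RNAs and most small nuclear and nucleolar RNAs of yeast, while ribosomal RNA, transfer RNA and the RNA of mitochondrial DNA are made by other polymerases. RNA crosslinked to Pol II is still being made, so its amount on a gene follows the polymerases present there more closely than the stability of the finished messenger RNA. In fast-growing yeast a small set of genes, above all those for ribosomal proteins and glycolytic enzymes, takes a large part of Pol II transcription. In bulk cells, more cells with polymerase on a gene and more polymerase per cell cannot be told apart.

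Each deposited value is a read count divided by 1 size factor per library, and whole reads could be recovered from all of them. Library 1 held 12084304 reads and library 2 held 9584474, and a count of 0 allows a share of up to 2.48e-05% and 3.13e-05% of them (3 reads, counting error only, since reads are not independent molecules). Signal per kb is the normalised value divided by the feature's length, introns included, times 1000, and pairs of values give library 1 and then library 2. The median feature had 906 and 905 reads per kb. On the mean of both libraries the lower and upper quartiles were 422 and 1727 reads per kb, and the highest 10% began at 3247, which is 51.6 times the value that bounds the lowest 10% (62.9). Of the summed signal per kb, 853 features (12.8% of all) held 50%, the highest 100 held 15.3%, the highest 20 held 5.02% and the highest 10 held 3.06%.

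The highest feature was RPL41B, 1 of a pair of genes for the shortest ribosomal protein (chrIV:221724-221801, minus strand, build R64), with 43478 and 45162 reads per kb (mean 44319.9 ± 1191, SD, n = 2). Its partner RPL41A (chrIV:130407-130484, minus strand) stood at rank 3 with 38297 and 37328 reads per kb. Both libraries put the B copy above the A copy. Before division by their 78 bases, RPL41B had 3391 and 3523 normalised reads and RPL41A 2987 and 2912. RPL28, at rank 9, had 23390.5 and 25193, so these ranks hold per kb and not by reads. The whole coding sequences, from the R64 genome, are shown because the copies share 77 of 78 bases, with the 1 base that differs in capitals. Only 18.4% of the 30-base words of each copy occur once in the genome, so how reads were split between the copies is uncertain.
RPL41B: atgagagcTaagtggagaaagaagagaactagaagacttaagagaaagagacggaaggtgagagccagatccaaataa
RPL41A: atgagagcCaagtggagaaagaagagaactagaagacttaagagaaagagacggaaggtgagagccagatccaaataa

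SPO24, which encodes a small protein named for sporulation, was at rank 2 (chrXVI:645950-646153, plus strand) with 36282 and 43732 reads per kb (40007 ± 5268, SD, n = 2), the widest gap between libraries among the 20 highest features. YGL088W was at rank 4 with 31424 and 33821 reads per kb. It is an open reading frame of 366 bases (chrVII:345836-346201, plus strand), of which 216 lie on the same strand inside SNR10, a small nucleolar RNA (snoRNA) that guides the modification of ribosomal RNA. Of the 20 highest, 9 were ribosomal protein genes, and 3 had only a systematic name.

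Ribosomal protein genes filled the ranks from 5 to 12 except rank 6. RPL9B had 28617 and 31571 reads per kb, RPS12 had 28089 and 29101 and RPS31, whose product is a fusion with ubiquitin, had 26296 and 27502. RPL28 had 24339.7 and 26215, RPL10 had 23937 and 24053, RPL43B had 23011 and 22356 and RPS14B had 20631 and 21590.3 reads per kb. Rank 6 was TMA19, a protein that associates with ribosomes, with 28583 and 28818 reads per kb.

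The remaining members of the highest 20 were mostly genes for the cell surface or for metal and osmotic stress. ZEO1, a peripheral membrane protein, had 20093 and 21112 reads per kb. CCW12 and CWP2, cell wall mannoproteins, followed: CCW12 had 20268 and 20841 and CWP2 had 19474 and 20095 reads per kb. Of the tandem metallothionein genes, whose product binds copper, CUP1-1 had 20472 and 19006 and CUP1-2 had 20966 and 19066 reads per kb, and none of their 30-base words occurs once, so their values cannot be separated. HOR7, induced by osmotic stress, had 18428 and 18955 reads per kb. The short frames YER053C-A (114 bases, 20067 and 21756 reads per kb) and YDR524C-B (201 bases, 19041 and 20183) completed the set. The libraries shared 10 of their highest 10 features, 19 of 20, 94 of 100 and 642 of 668.

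**Figure D1:**
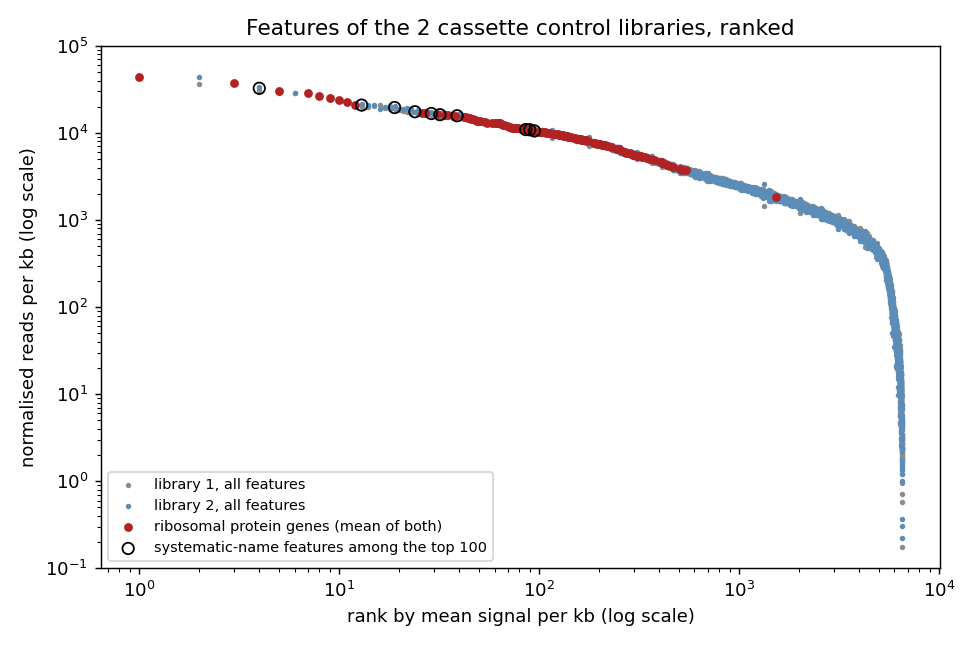
Features ranked by mean signal per kb (x axis, rank, log scale) against signal per kb in normalised reads (y axis, log scale) in library 1 (grey) and library 2 (blue), with ribosomal protein genes (red, mean of both libraries) and systematic-name features among the highest 100 (open circles). Red points fill 52 of the first 100 ranks, and 10 of those ranks carry an open circle.

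The 138 genes for cytosolic ribosomal proteins, 2.07% of the features, held 13.7% and 13.99% of the summed signal per kb in libraries 1 and 2 (mean 13.9 ± 0.167%, SD, n = 2). As a share of reads, which does not divide by length, they held 9.35% in library 1 (95% Wilson interval 9.33 to 9.36%) and 9.43% in library 2 (9.41 to 9.45%). Their median was 9069 and 9219.9 reads per kb, 10.2 times the median of all features on the mean of both libraries. All 138 lay above the median of all features, and 137 of them lay among the highest 668. The exception was RPL15B, with 1929.6 and 1745 reads per kb.

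Most yeast ribosomal proteins are encoded by a pair of near-identical genes, marked A and B. Of 59 such pairs, the A copy was higher in 31 and the B copy in 28, 35 pairs differed less than 1.5-fold, and 7 differed at least 2-fold. The order of the copies was the same in both libraries for 56 of the pairs. RPL9B exceeded RPL9A the most, with 28617 and 31571 against 9016 and 9012 reads per kb. RPP2B, RPL36B, RPS14B and RPS0B also exceeded their A copies at least 2-fold, by 2.28, 2.26, 2.26 and 2.14 times. The opposite order was seen for RPS7A, with 11193 and 11687 against 3895 and 3788 for RPS7B, and for RPL15A, with 5261 and 5256 against 1929.6 and 1745 for RPL15B. The log2 ratio of a pair moved between libraries by at most 0.15, so these gaps were larger than the spread between libraries. In 29 pairs at least 90% of the 30-base words of each copy occur once in the genome, and 4 of the 2-fold gaps were among them (RPP2, RPL36, RPS0 and RPS7); pairs that share more sequence are uncertain. These pairs were named after their values were seen.

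The 300 bases that end 100 bases short of the start codon were read from the R64 genome for 5909 genes. Rap1, the factor that binds many ribosomal protein promoters, recognises sequences close to ACCCANNCA. That string, on either strand, was in 42 of 138 ribosomal protein windows (30.4%), against 4.11% of all windows. Ribosomal protein genes with it had a median of 9937 reads per kb and those without it 8630.2. A match is a description of the letters and not of binding, and other forms of the site were not searched. The window of RPL28 (chrVII:310567-310866, plus strand, R64), the highest ribosomal protein gene with a match and with at least 90% of its words found once, is shown with the match in capitals.
RPL28 window: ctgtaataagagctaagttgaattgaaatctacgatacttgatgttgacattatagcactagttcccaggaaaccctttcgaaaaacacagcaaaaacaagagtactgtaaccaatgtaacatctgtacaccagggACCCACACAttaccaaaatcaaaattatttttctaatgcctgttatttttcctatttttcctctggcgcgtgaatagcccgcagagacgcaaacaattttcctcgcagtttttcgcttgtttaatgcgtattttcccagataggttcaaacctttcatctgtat

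Other lists of protein synthesis genes had medians above that of all features but below that of the ribosomal proteins, while single genes lay outside these bounds. Of 40 translation factor genes 37 exceeded the median of all features, with a list median of 2894 and 3065 reads per kb. HYP2, the main gene for eIF5A, had 17988 and 18952 reads per kb and TEF2, a gene for elongation factor 1A, had 14987 and 16725, while HEF3, a little-used copy of elongation factor 3, had 202 and 208. TEF2 and TEF1 are near-identical, so their reads are uncertain. All 19 aminoacyl-tRNA synthetase genes, which charge transfer RNAs, exceeded the median of all features, from THS1 at 3935 and 3881 and SES1 at 3716 and 3803 reads per kb down to FRS2 at 1420.0 and 1452. The 75 nuclear genes for mitochondrial ribosomal proteins had a median of 2075 and 1983 reads per kb, from MRPL51 at 4839.6 and 4589.7 and MRP2 at 4714 and 4527 down to EHD3 at 581 and 624. On the mean of both libraries these genes held 1.57% of the summed signal per kb but 0.965% of reads, for 1.12% of features.

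Ribosome biogenesis genes, which process and assemble ribosomal RNA, numbered 89, and 87 of them exceeded the median of all features. Their median was 2009.7 and 1911 reads per kb. NOP10, a small protein of box H/ACA snoRNA particles, had 8928 and 8161 reads per kb, DBP2, an RNA helicase gene with an intron, had 7675 and 8028, and ECM16, a long helicase gene, had 704 and 694. The PAC string GATGAG was in 70.8% of their windows, against 17.8% of all windows, and the RRPE string AAAAATTTT was in 64.04%, against 7.40%, both searched on either strand. Biogenesis genes with RRPE had a median of 2137 reads per kb and those without it 1624. For PAC the 2 medians were closer, 1964 with it and 1895 without it. The window of DBP2 (chrXIV:413239-413538, plus strand, R64) holds both, in capitals, close to each other.
DBP2 window: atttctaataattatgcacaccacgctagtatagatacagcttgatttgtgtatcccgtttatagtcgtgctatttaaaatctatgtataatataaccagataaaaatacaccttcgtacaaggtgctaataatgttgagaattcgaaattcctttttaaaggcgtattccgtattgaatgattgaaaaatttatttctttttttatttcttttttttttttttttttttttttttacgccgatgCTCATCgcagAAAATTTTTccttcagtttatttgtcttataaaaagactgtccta

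All 12 genes for Pol II subunits lay above the median of all features, with a list median of 4613 and 4244 reads per kb. On the mean of both libraries the genes for subunits shared with Pol I and Pol III led, though RPB4 exceeded RPB8 in library 1. RPC10 had 12853 and 13102 reads per kb, RPB10 had 10989 and 10987 and RPO26 had 7152 and 7086. RPB5 had 5772 and 5598 and RPB8 had 4644 and 4738. Among the subunits of Pol II alone, RPB4 had 4679 and 4343, RPB9 had 4582 and 4144, RPB11 had 2838 and 2853, RPB3 had 2511 and 2399 and RPB7 had 1846 and 1729 reads per kb. The largest subunits were lowest, RPB2 with 1568 and 1564 and RPO21, which carries the catalytic core and the C-terminal repeats, with 1312 and 1359. The 19 genes for subunits of Pol I and Pol III had a median of 2397 and 2492 reads per kb, from RPA12 at 5930.4 and 6083 and RPC19 at 4050.4 and 4236 down to RPC53 at 1116 and 1040.4.

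Genes of glycolysis and alcoholic fermentation, the route by which yeast turns glucose into ethanol, had a median of 4568 and 4945 reads per kb, and 19 of 25 exceeded the median of all features. They held 1.49% and 1.60% of the summed signal per kb. TDH3, the main glyceraldehyde-3-phosphate dehydrogenase gene, had 17312 and 19297 reads per kb and TPI1, triose phosphate isomerase, had 16636 and 18438, while PDC6, a minor pyruvate decarboxylase gene, had 72.1 and 56.7. The spread within the list, from highest to lowest, was thus far wider than within the ribosomal proteins. The TATA box string TATAAA, on either strand, was in 76.0% of their windows, against 43.2% of all windows and 31.9% of ribosomal protein windows.

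Hexose transporter genes split widely, with a median of 102 and 90.5 reads per kb. HXT3 had 3836 and 3693 and HXT1, the low-affinity transporter used in high glucose, had 2669.9 and 2569 reads per kb, while HXT15 had 8.30 and 5.30. Several low members are near-identical to each other, HXT15 and HXT16 among them, so their values are uncertain. The lists of galactose and of gluconeogenesis and glyoxylate genes, used on other carbon sources, had low medians. All 7 galactose genes lay below the median of all features. GAL80, the repressor, had 661 and 625 reads per kb and the sensor GAL3 had 200.3 and 206. The activator GAL4 had 128 and 118 and the permease GAL2 had 18.5 and 20.3. Of the enzymes, GAL1 had 67.4 and 56.2, GAL7 had 64.3 and 54.4 and GAL10 had 51.8 and 56.5 reads per kb. Of 17 gluconeogenesis and glyoxylate genes 2 exceeded the median of all features, DAL7, a malate synthase, with 1804 and 1819 and MDH2 with 1244 and 1279 reads per kb, and ADY2, an acetate permease, was lowest with 39.4 and 34.5. The list medians were 67.4 and 56.5 reads per kb for galactose genes and 249.96 and 209.9 for gluconeogenesis. CIT2, a peroxisomal citrate synthase with high signal, was counted with the tricarboxylic acid cycle and not in these lists.

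The 18 genes of the tricarboxylic acid cycle and its supply had a median of 1384 and 1323 reads per kb. CIT2, a peroxisomal citrate synthase, stood apart with 16946 and 18959 reads per kb, followed by ACO1, aconitase, with 6289.6 and 6651, and KGD1, of the ketoglutarate dehydrogenase complex, was lowest with 589.8 and 604. Nuclear genes of the respiratory chain and ATP synthase had a median of 3373 and 3362 reads per kb, and 37 of 39 exceeded the median of all features. They are short, with a median length of 447 bases. On the mean of both libraries they held 1.57% of the summed signal per kb but 0.661% of reads, for 0.584% of features. QCR9 had 11767 and 11976 and CYC1, cytochrome c, had 10057 and 11051 reads per kb, against 715 and 749 for SDH1.

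The series is titled for genes of nitrogen metabolism, and their level in these cells is the starting point of its comparisons. Genes under nitrogen catabolite repression, held down while good nitrogen sources last, had a median of 987 and 1028 reads per kb, close to that of all features, and 20 of 38 exceeded it. GLN1, glutamine synthetase, had 10494 and 11240.3 reads per kb, GAP1, the general amino acid permease, had 5753 and 6311, and MEP1, an ammonium permease, had 3069 and 3122 (the last named after its value was seen). At the other end DAL1, allantoinase, had 37.1 and 41.6, and the ASP3-1 to ASP3-4 copies for asparaginase had 0 reads in both libraries, with no 30-base word found once. The string GATAAG, bound by GATA factors such as Gln3, was on either strand in 27 of 38 windows of the list (71.1%), against 14.01% of all windows. Members with it had a median of 1014 reads per kb and those without it 898. The window of GAP1 (chrXI:514663-514962, plus strand, R64) is shown with each match in capitals, on either strand.
GAP1 window: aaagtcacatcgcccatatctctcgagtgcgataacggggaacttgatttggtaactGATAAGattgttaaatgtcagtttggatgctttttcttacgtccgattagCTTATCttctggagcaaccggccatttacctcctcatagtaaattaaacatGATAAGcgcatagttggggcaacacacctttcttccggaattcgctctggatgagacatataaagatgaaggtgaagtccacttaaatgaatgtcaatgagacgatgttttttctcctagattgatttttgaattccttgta

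Amino acid permease genes had a median of 1586 and 1643 reads per kb, and 15 of 23 exceeded the median of all features. BAP2, a branched-chain amino acid permease, had 6774 and 7197 reads per kb, above GAP1, while UGA4, a permease for GABA, was lowest with 93.3 and 86.2. The 73 amino acid biosynthesis genes had a median of 1674 and 1635 reads per kb, with ILV5, of branched-chain synthesis, at 14898 and 16464, GDH1, glutamate dehydrogenase, at 10696 and 11627 and MET5, a sulfite reductase subunit, at 276 and 261. Cells were grown with limiting uracil. The list of uracil and purine synthesis had a median of 1591 and 1605 reads per kb, led by FUR1, uracil phosphoribosyltransferase of the salvage route, at 8586 and 9039 and IMD4 at 7318 and 7504, whose intron holds the snoRNA SNR54.

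Nrd1, Nab3 and the helicase Sen1 end transcription of many short noncoding RNAs, which the nuclear exosome then trims or destroys. Of 25 genes of that complex and of nuclear RNA decay, 23 exceeded the median of all features, with a list median of 1876 and 1676 reads per kb. LRP1, an exosome cofactor, had 3809.6 and 3589.7 and CSL4, an exosome subunit, had 2934 and 2685 reads per kb, while SEN1, a long gene, had 223 and 230.2. The genes depleted elsewhere in the series had middling signal here, NRD1 with 1134 and 1217 and NAB3 with 1055 and 1068 reads per kb (named for the series, after their values were known). Of 21 genes of messenger RNA cleavage and polyadenylation 13 exceeded the median of all features, from SSU72, a phosphatase of the Pol II tail, at 6079 and 5843 and NAB2 at 5251 and 5507 down to CFT1 at 557 and 548. Genes listed as ended by Nrd1 and Nab3 ranged from RPL9B and RPB10 down to GPH1, glycogen phosphorylase, at 202 and 269 reads per kb. Their median was 1173 and 1183 over 18 genes, and where in each gene transcription ends was not tested.

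The 11 histone genes had a high list median, 6607 and 6442 reads per kb. For the nucleosome core, HHF2 had 13046 and 13068, HHF1 7069 and 6599, HHT1 10123 and 10676 and HHT2 7685 and 8576 reads per kb. HTA1 had 9639 and 10272, HTA2 6607 and 6442, HTB1 5475 and 5185 and HTB2 2224 and 2267, so the HTB1 copy exceeded the HTB2 copy in both libraries. All 11 histone genes exceeded the median of all features, and those outside this set were in the lower part of the list. The variant HTZ1 had 2614 and 2276, the centromeric CSE4 1596 and 1379.8 and the linker histone HHO1 959 and 1079 reads per kb. The HHF, HHT and HTA genes of each kind share part of their sequence, so their split is uncertain.

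Genes for general cell upkeep lay mostly above the median of all features. All 34 proteasome genes did so, with a median of 3313 and 3258 reads per kb, from PUP3 at 7154 and 6840.4 and SEM1 at 6144 and 5706 down to RPN1 at 1752 and 1703. So did 14 of 15 vacuolar ATPase genes, from VMA10 at 7737 and 7879 and VMA3 at 7248 and 7261, with STV1, of the Golgi form, at 801 and 769.8. Of 39 chaperone genes 36 did so, from the list's highest, the mitochondrial HSP10, at 8424 and 8272 and HSC82 at 7142 and 7757 down to SSE2 at 556 and 515. Ergosterol synthesis genes had a median of 2416 and 2309 reads per kb, from ERG3 at 4543 and 4914 and ERG1 at 4498 and 4640.4 down to the regulator UPC2 at 435 and 468.

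Genes of the plasma membrane and cell wall had a wide range and a median of 2659 and 2925 reads per kb. Behind CCW12 and CWP2 came DAN1, an anaerobic cell wall protein, as the lowest member, with 16.8 and 15.1 reads per kb. Cytoskeleton genes had a median of 1504 and 1576 reads per kb, from profilin, PFY1, at 7941 and 7764 and cofilin, COF1, at 5744 and 5904 down to ABP1 at 434 and 449. Cyclins and their partners had a median of 881 and 843, near that of all features, with PCL1 at 7529 and 7609, PHO85 at 2283 and 2367 and CLB6 at 309 and 329.

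Stress and starvation lists stood near the median of all features, with single genes far above it. The 44 environmental stress genes had a median of 869 and 842 reads per kb, with HOR7 highest, SOD1, superoxide dismutase, at 10836 and 10079.7 and GDB1, glycogen debranching enzyme, lowest at 111 and 107. The 21 phosphate starvation genes had a median of 777 and 816, from VTC1 at 5215 and 5120.0 and PHO4, the activator, at 2747 and 2825 down to PHO89 at 118 and 108 reads per kb. The 23 iron uptake genes had a median of 1124 and 1106, from FTR1, the iron permease, at 4052 and 3642 and HMX1, heme oxygenase, at 3142 and 3231 down to FIT1 at 32.3 and 34.9 reads per kb.

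Haploid yeast cells express the genes of 1 mating type, a or alpha. The 5 alpha-specific genes had 8806 and 10895 reads per kb on MF(ALPHA)1, the main alpha pheromone gene, 1217 and 1372 on STE3, the receptor for a pheromone, 876 and 872 on AFB1, 381 and 535 on the agglutinin SAG1 and 283 and 392 on MF(ALPHA)2. The 7 a-specific genes were lower: 252 and 259 on STE6, 223 and 229 on STE2, 132 and 106 on ASG7, 66.7 and 58.9 on BAR1, 60.3 and 68.4 on AGA2, 71.7 and 20.3 on MFA1 and 52.9 and 86.9 on MFA2. The list medians were 876 and 872 reads per kb for alpha-specific and 71.7 and 86.9 for a-specific genes, and the labels give no mating type. Genes of the shared pheromone pathway had a median of 806 and 837 reads per kb, from STE18, of the G protein, at 3245 and 3409 and STE4 at 2216 and 2233 down to FIG1, induced by pheromone, at 42.4 and 34.0. Meiosis and sporulation genes were low, with a median of 70.96 and 70.9 reads per kb and 1 of 60 above the median of all features, REC107 at 1127 and 1216. ADY4 followed with 942 and 845 and CDA2 was lowest with 10.4 and 16.8. SPO24, named for sporulation and at rank 2 of all features, was not in this list.

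Strain markers and the rapamycin pathway were present among the features. Of 8 genes commonly used as markers, TRP1 had 6649 and 6420.1 reads per kb, LEU2 3173 and 3253, URA3 2928 and 2846 and HIS3 1821 and 1806. ADE2 had 1585 and 1618, CAN1 1002 and 1077, LYS2 906 and 936 and MET17 476 and 453 reads per kb. None was at 0, and the labels do not give the genotype at these genes. FPR1, which encodes the rapamycin-binding protein and is deleted in many anchor-away strains, had 184 and 136 reads, or 472 and 445 per kb. Its targets were low to middling, TOR1 with 506 and 514 and TOR2 with 269 and 275 reads per kb, as were their partners TCO89 with 541 and 560.0 and KOG1 with 407 and 433, while LST8 had 2893 and 2822. RPL13A, the usual anchor of anchor-away strains, had 5331 and 5294 reads per kb.

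**Figure D2:**
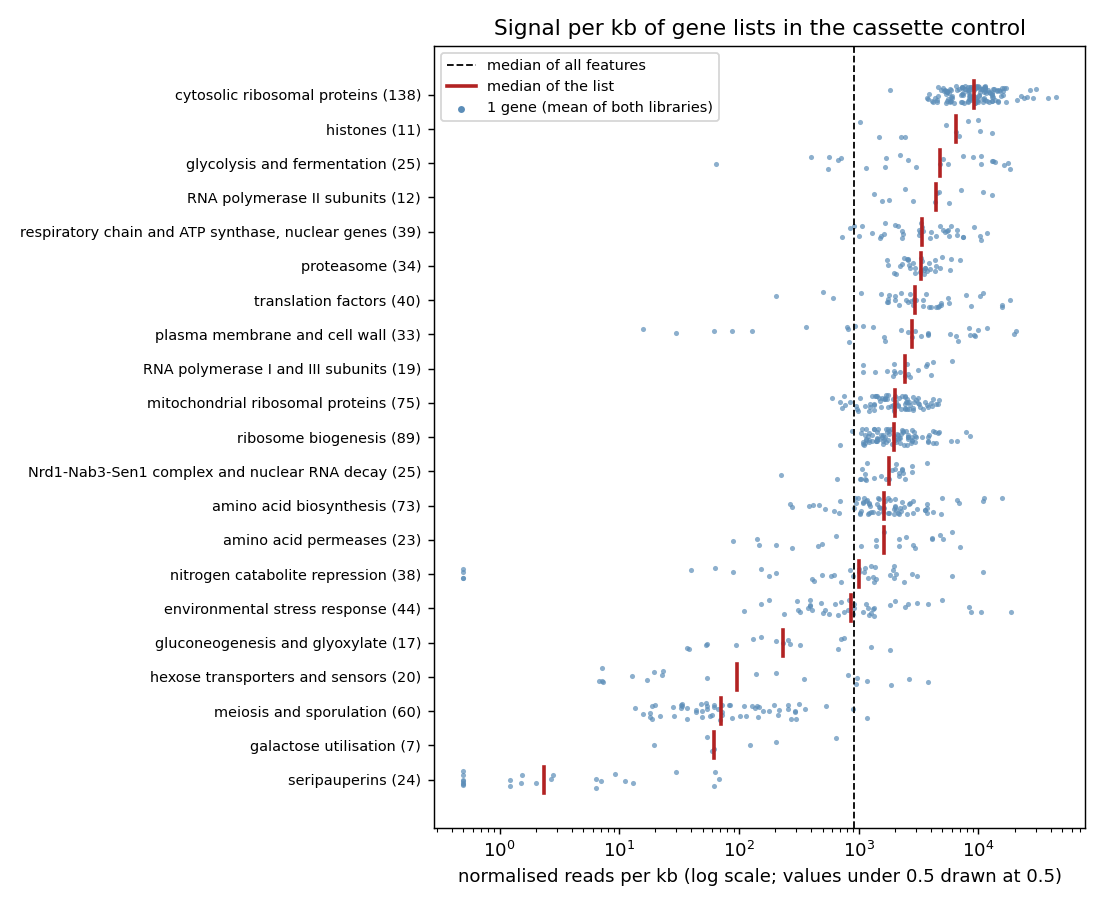
Signal per kb in normalised reads (x axis, log scale, mean of both libraries) of each gene (blue point) in 21 gene lists (y axis, number of genes in parentheses), with the list median (red bar) and the median of all features (dashed line, 905 reads per kb). Ribosomal proteins have the highest median, 9186 reads per kb, and seripauperins the lowest, 2.36, of the lists drawn.

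Signal was lower toward chromosome ends. Features within 10 kb of an end had a median of 15.1 and 12.8 reads per kb (142 features), against 313 and 298 from 10 to 25 kb (221), 814 and 822 from 25 to 50 kb (405), and 997 and 986 beyond 100 kb (4842). None of the features within 10 kb was among the highest 668. Seripauperins, a family of anaerobic cell wall proteins near chromosome ends, had a median of 2.44 and 3.06 reads per kb over 24 genes, from PAU23 at 70.7 and 66.3 and PAU17 at 56.6 and 69.3, with 7 at 0. COS and flocculin genes had a median of 106 and 86.7 reads per kb over 17 genes, from COS10 at 1109.9 and 1111 and COS6 at 684 and 740.1 down to COS12 at 12.4 and 14.8. Of the aryl-alcohol dehydrogenase genes, also a repeated family, AAD16 had 3402 and 3169 reads per kb, AAD3 820.3 and 827, AAD4 870.0 and 762, AAD10 799 and 745, AAD14 493 and 424 and AAD15 169.9 and 180.4. All 24 seripauperins and 13 of the COS and flocculin genes have under 90% of their 30-base words found once in the genome, and the part of repeated sequence in their low values was not tested.

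Introns, length and base composition were read beside the level. Ribosomal protein genes with an intron had a median of 9457 and 9569 reads per kb (90 genes), and those without one 8608 and 8764 (48 genes). Among other annotated genes the medians were 1567 and 1503 with an intron (193 genes) and 974 and 966 without (5579 genes). PAR-CLIP crosslinks at a thiouridine, so the share of T in a feature could bear on its signal: its median was 28.02% in the highest 668 features, lay between 27.1 and 29.03% in the 8 like-sized rank groups between, and was 29.6% in the lowest 668. Median length was 615 bases in the highest 668 and longest, 1770.0 bases, in the fourth group from the bottom.

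Strings of general promoter factors also differed between the ends of the ranking. The Reb1 string TTACCCG, on either strand, was in 12.9% of the 645 windows of the highest 668 features, against 2.38% of the 336 windows of the lowest 668 and 9.07% of all windows. The Abf1 motif was in 20.5%, against 8.63% of the lowest and 17.4% of all. TATAAA was near equal, in 43.9% of the highest and 44.3% of the lowest, as was CACGTG, bound by Cbf1, in 4.50 and 3.87%. CTTCC, bound by the glycolytic activator Gcr1, was in 56.0% of glycolysis windows, against 46.2% of all. It was also in 54.3% of ribosomal protein windows and 50.4% of those of the highest 668 features. Glycolysis genes with it had a median of 4303 reads per kb and those without it 4757.

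Features with a gene name carried more signal than those known only by a systematic name, which gives chromosome, arm, number and strand. The 5115 named features had a median of 1067 and 1061 reads per kb, against 291 and 285 for the 1562 systematic-name features. The ratio of medians was 3.66 in library 1 and 3.73 in library 2. Named features held 88.1% of the summed signal per kb while making up 76.6% of features, and 0.723% of them were at 0 in both libraries, against 5.89% of systematic-name features. Among the highest 668, 69 were systematic-name features.

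Systematic-name features were of different kinds. The 821 that match an R64 annotation entry of equal length had a median of 568 and 566 reads per kb, and the 741 that do not had 93.3 and 82.6. The gap to named features also changed with length. Over 300 and up to 600 bases, which holds 763 systematic-name features, the medians were 2123 and 2026 reads per kb for named and 138 and 130.1 for systematic-name features. Over 1000 and up to 1500 bases they were 1125 and 1111 for named and 823 and 825 for systematic-name features, a much smaller gap. Up to 150 bases only 11 features are named. There the medians were 120.3 and 86.9 for named and 128 and 120.5 for systematic-name features, so the order of the medians turned in both libraries. Yet 5 of these 11 named features were among the highest 668, against 11 of 121 systematic-name features.

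**Figure D3:**
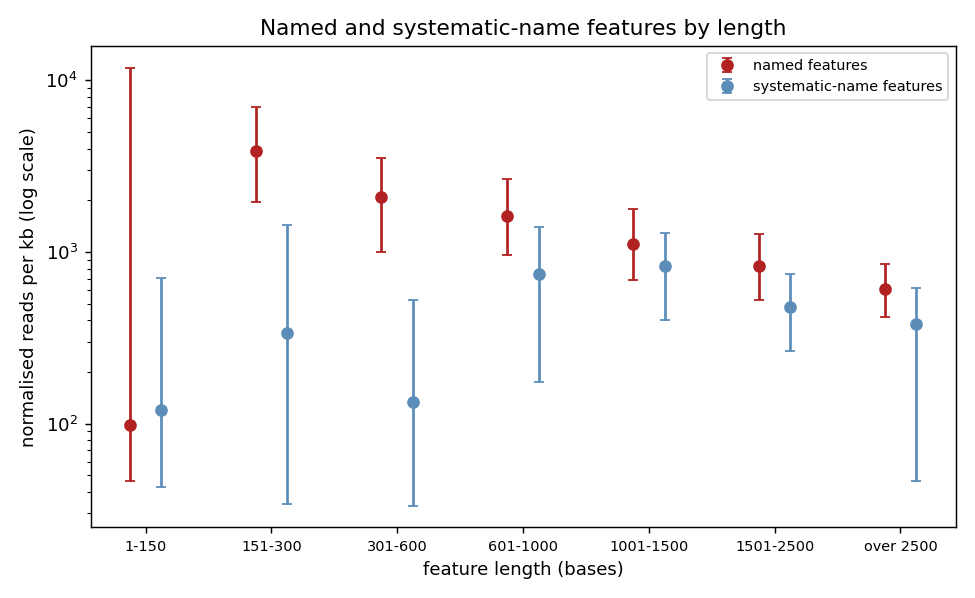
Median signal per kb in normalised reads (y axis, log scale, mean of both libraries) of named (red) and systematic-name features (blue) by length in bases (x axis), with bars for the lower and upper quartiles. The gap is widest over 150 and up to 600 bases, and over 1000 and up to 1500 bases the medians are 1111 and 829.9 reads per kb.

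The highest systematic-name features with an annotation entry were YGL088W, YER053C-A, YDR524C-B, YGL188C-A (141 bases, 17504 and 17582 reads per kb) and YJL047C-A (135 bases, 17031 and 15419). Without an entry, the highest was YPL222C-A (246 bases, 15960.5 and 17524 reads per kb), which by its length and neighbours lies inside FMP40 on the opposite strand, where FMP40 itself had 320.4 and 339. Next came YMR013W-A with 16190.2 and 15352, YCL006C with 8629 and 8809 and YCR064C with 7077 and 6414 reads per kb, the last 2 without a position here. YOR186C-A had 6043 and 6314 and lies opposite YOR186W, which had 118 and 77.9 reads per kb. Signal on YPL222C-A and YOR186C-A thus exceeded that of the gene on the other strand by far in both libraries.

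The features that overlap a snoRNA on the same strand numbered 12, with a median of 8465 reads per kb. All 12 were among the highest 668 of the 6677 features. In 8 of them the gene has an intron, RPS22B (10569 and 10732 reads per kb), EFB1, IMD4, ASC1, NOG2, RPL7A, TEF4 and RPL7B (4591 and 4615). The other 4 were YGL088W, YJL047C-A, YMR013W-A and IRC13, which overlaps the U3 gene SNR17A and had 9098 and 9939 reads per kb. RPS22B, ASC1, RPL7A and RPL7B are also in the ribosomal protein list, of which 137 of 138 genes were among the highest 668. EFB1 and TEF4 are in the translation factor list, of which 19 of 40 were. Whether the overlap adds to the level of such genes was not tested. The 12 features were found by their overlap after values were seen. Whether the reads come from the snoRNA or the frame cannot be told apart from counts per feature. The short frames YJL047C-A (chrX:349044-349178, minus strand) and YMR013W-A (chrXIII:298311-298391, plus strand, placed by its length) are shown from the R64 genome, 5′ to 3′, with the 49 bases inside SNR60 and the 81 bases inside SNR73 in capitals.
YJL047C-A: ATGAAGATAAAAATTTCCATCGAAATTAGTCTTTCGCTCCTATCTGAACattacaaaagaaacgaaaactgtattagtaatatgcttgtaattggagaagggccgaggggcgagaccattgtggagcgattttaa
YMR013W-A: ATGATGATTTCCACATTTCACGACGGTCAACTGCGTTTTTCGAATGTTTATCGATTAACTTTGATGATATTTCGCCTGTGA

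Of the 767 features without an entry of equal length, 584 were placed on R64 as the only open reading frame of their length on the named strand between their numbered neighbours. Frames opposite a gene had far less signal than the gene. Of 46 frames wholly inside a gene on the opposite strand, the median was 69.1 reads per kb, with a median log2 ratio of frame to gene of -3.75 (1 added to each), and 9 exceeded their gene, YPL222C-A and YOR186C-A among them. Of 285 frames inside by 50% or more the median was 124 reads per kb and the log2 ratio -3.17, and of 76 inside by less it was 140.1 and -2.63. In the group inside by 50% or more 40 frames exceeded their gene, and in the group inside by less 15 did. The 96 frames that overlap no feature matched to the annotation had a median of 133 reads per kb. Overlap with noncoding genes was not counted here, so YMR013W-A, inside SNR73, is among them.

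Frames on the same strand as a gene behaved differently. Of 29 placed wholly inside a gene on its own strand, 21 were at exactly 0 in both libraries, and their genes had a median of 522 reads per kb. Frames inside by 50% or more had a median of 127 reads per kb (23 frames, log2 ratio -1.93) and frames inside by less had 619.8 (29 frames, log2 ratio -0.01). Of 241 positioned features, annotated or placed, that share bases with another on their own strand, those sharing most of their length were lowest. The median was 528 reads per kb at up to 5% of the length (53 features), 747 at 5 to 25% (73), 374 at 25 to 50% (31), 339 at 50 to 75% (23) and 69.96 from 75% to under 100% (22). DDR48, a stress protein gene, is covered over 83.9% of its length by the frame YMR173W-A and had 393 and 383 reads per kb, and NHP6A, a chromatin protein gene covered over 66.3%, had 429.6 and 453. CCW14, a cell wall gene covered over 64.02%, had 2659 and 2925 reads per kb. Whether reads in shared bases were counted for either feature was not tested, and 31 annotated features are covered over more than 50%. Among the same-strand frames wholly inside a gene, YCR029C had 1180.3 reads per kb inside SYP1 (436) and YJL021C had 304 inside BBC1 (221), the 2 of 29 that exceeded their gene. Of those inside by 50% or more 1 did, and of those inside by less 13 did. The placement was checked on annotated frames only, so that of YCR029C may be wrong. All genes named beside these frames were chosen after their values were seen.

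**Figure D4:**
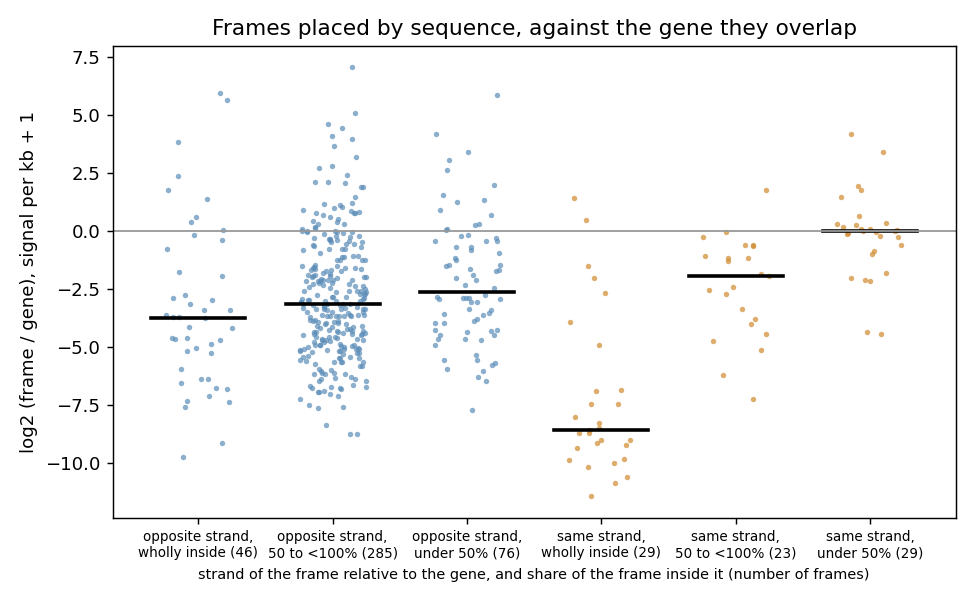
Log2 ratio of the signal per kb of frames placed by sequence to that of the gene they overlap (y axis, 1 added to each, mean of both libraries), by strand and by the share of the frame inside the gene (x axis, number of frames in parentheses), with medians (black bars). Opposite-strand frames have medians from -3.75 to -2.63, and same-strand frames wholly inside a gene have a median of -8.57.

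In both libraries 129 features had no read, 37 named and 92 with a systematic name. All 18 genes of mitochondrial DNA were among them, COX1, COB, ATP6, ATP8, COX2, COX3, OLI1 and VAR1 included, as were 7 of the 8 YRF1 helicase copies at chromosome ends. Of 12 frames within the ribosomal DNA repeat, 5 were at 0, while YLR154W-F had 2302 and 2443, RRT15 1315 and 1129 and YLR154W-E 902 and 947 reads per kb. Of the rest, YLR154W-B had 369.8 and 404, TAR1 285 and 322, YLR162W 39.6 and 28.5 and YLR154W-A 9.51 and 0. Mitochondrial DNA is transcribed by its own polymerase, and whether reads could be assigned there was not tested. Of the 84 features at 0 with a position, 36 have at most 5% of their 30-base words found once and 30 are wholly unique. Over all features, those with at most 5% had a median of 4.12 reads per kb (103 features) and wholly unique ones 954 (5799 features).

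The libraries ranked the features almost identically. Across 6311 features that averaged 10 or more normalised reads, Spearman's rho was 0.998 and Pearson's r of log2(value + 1) was 0.997; features of 1 library share its depth and are not independent, so no p is given. The median feature differed by 1.05 times between libraries, and 95% of features differed by less than 1.24 times. The chi-square of the recovered reads was 3.04 per degree of freedom over 6273 features, where independent counts of 1 library would give about 1. Since reads are not independent molecules, how much of this is duplication of reads cannot be told apart from a difference between libraries. At least 1.5 times apart were 102 features (1.62%), 65 higher in library 1 (1.03%) and 37 higher in library 2 (0.586%), and 12 were at least 2 times apart. Of these 102, 95 had a mean of 10 to 100 normalised reads, where counting error is widest. The log2 ratio of library 1 to library 2 drifted with level and length, with a median of 0.08 at a mean of 10 to 100, -0.05 above 5000, 0.09 for features up to 150 bases and -0.04 for those over 2500.

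Among features that averaged 100 or more normalised reads, those most above in library 2 included genes of inositol and of mating. INO1, inositol-3-phosphate synthase, had 2294 and 4177 normalised reads, a log2 ratio of library 1 to library 2 of -0.86, and was the only such feature with a mean over 1000 that passed 1.5-fold. SAM2, which makes S-adenosylmethionine, had 1408 and 2023 (-0.52). FUS1, a pheromone-induced gene of cell fusion, had 109.7 and 203 (-0.88), and AGA1, SAG1 and MF(ALPHA)2, also of mating, had log2 ratios of -0.52, -0.49 and -0.47. The rest were SSP2 (-0.67), MOH1 (-0.45), YEL073C (-0.44) and YFR036W-A (-0.42). Most above in library 1 were YSR3, a sphingolipid phosphatase, with 193 and 116 normalised reads (0.72), YKL071W with 265 and 169 (0.64) and YCR045W-A with 190.1 and 125 (0.60). The other 7, MAL12, YER091C-A, SGA1, YKL065W-A, YBL071C, YOL085W-A and YHR071C-A, lay between 0.45 and 0.59. These features were ranked on this ratio, so it is a description.

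Several lists of high signal differed little between libraries. None of the 138 ribosomal protein genes, the 89 ribosome biogenesis genes or the 25 glycolytic genes differed by 1.5 times, against 1.62% of all features compared, but of all features averaging 500 or more normalised reads INO1 alone did. Lists of low signal held more: 5 of 60 meiosis and sporulation genes, 2 of 20 hexose transporter genes and 1 of 4 seripauperins that averaged 10 or more reads, where 14.8% of all features averaging 10 to 100 reads did so. In the cell wall list TIR1 and in the shared mating list FUS1 passed as well. The median log2 ratios of library 1 to library 2 for ribosomal proteins, ribosome biogenesis and glycolysis were -0.02, -0.01 and -0.10. In the glycolysis list 21 of 25 genes were higher in library 2, and in the alpha-specific list 4 of 5, with a median of -0.31. The shared mating pathway had 14 of 19 higher in library 2 and a median of -0.07. A list of 19 phospholipid and fatty acid genes was drawn up after INO1 and SAM2 were seen. It holds INO1, so its direction is partly set by that choice, and its values are a description. In it 19 of 19 were higher in library 2, with a median of -0.17, against 3150 of 6311 features and a median of 0.00 overall. All features averaging 2000 to 5000 normalised reads had a median of -0.02, and those above 5000 had -0.05. In the phospholipid list ITR1, the inositol transporter, had -0.35 and CHO1, phosphatidylserine synthase, -0.23, and 1 gene, INO1, passed 1.5-fold.

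**Figure D5:**
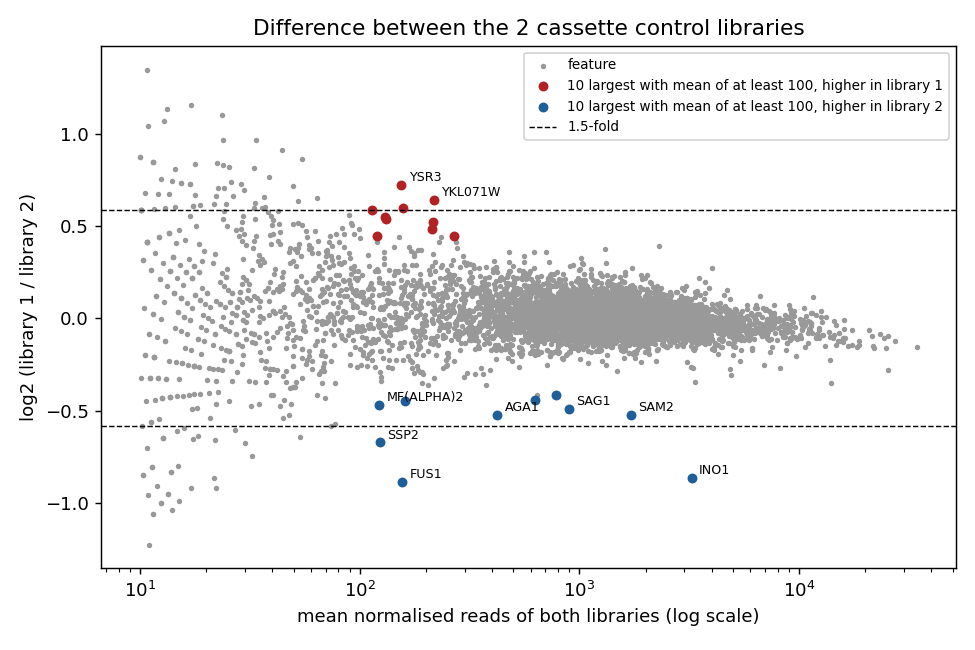
Log2 ratio of library 1 to library 2 (y axis) against the mean normalised reads of both libraries (x axis, log scale) for 6311 features that averaged 10 or more, with dashed lines at 1.5-fold and the 10 features of largest ratio in each direction among those averaging 100 or more (red, higher in library 1, and blue, higher in library 2). INO1 lies at -0.86, far from other features of its level.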

How the data were processed

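RNA crosslinked to an HTB-tagged protein was measured in 2 cassette libraries. The values, deposited by the authors, are a normalised signal: reads per feature divided by a size factor, as the values show, since 100% of them in both libraries are whole multiples of 1 read within 0.01 reads. Per the submitters' processing notes the tools included Bowtie 1.1.1 and DESeq, and the builds were R64 and sacCer3. Which program counted reads, whether it used strand and how it treated repeated sequence is likewise not given in the sources used here. Whole reads would allow a count test, but with 1 group there was nothing to test. The authors' deposited mean of the cassette group equals the mean of both libraries.

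Signal per kb used the authors' deposited length (given as length minus 1, introns included), a signal per feature with no filter on low values. Ratios between libraries used log2(value + 1), computed here from the deposited signal, and a mean of at least 10. Features were matched to the RefSeq annotation of R64 by symbol, locus tag or synonym: 5910 of 6677 matched with equal length, and 48 more by name with another length, counted as not matched. Placing a frame by its length was checked on annotated systematic-name frames, of which 718 fell at their position, 0 elsewhere, and 55 and 48 gave no or several frames. The members and gene lists were chosen with earlier results of these data known, and the motifs, the frame placement and the phospholipid list after seeing values; Reb1 (TTACCCG), Abf1, Gcr1 (CTTCC) and CACGTG strings were also searched. Named features were the 20 highest, the 10 highest named genes of at least 300 bases, the 2 highest and the lowest of each list, all of lists of up to 12, the 5 highest systematic-name features with and without a match, and the 10 largest ratios each way at a mean of at least 100. The fold count and the chi-square were tested on simulated reads with counting error only, and the share on made-up values. The motif, word, overlap and copy-pair steps were not tested on simulated data. 4 columns of other samples were not used. Python 3.11.15, pandas 2.3.3, numpy 2.4.6, scipy 1.17.1 and matplotlib 3.10.9 were used.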

Additional observations from a re-analysis of the deposited data

How the results depend on the processing

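With annotation-matched features only, the ribosomal protein share was 14.4% (against 13.9%), the ratio of named to systematic-name medians 1.87 (against 3.69), rho 0.997 (against 0.998) and the count past 1.5-fold 50 (against 102), so the name ratio rests to a large part on frames without an entry. Not divided by length, the share was 9.39% and the ratio 13.1. Without the 10 highest features the share was 12.2%. The ratio was 3.43 at 300 bases or more, 2.40 at a mean of at least 10 and, chosen after seeing the data, 3.44 without features covered over 50% on their strand. At a mean of at least 50, rho was 0.997 and 11 features passed 1.5-fold; 30 passed with a pseudocount of 10, and 12 passed 2-fold. Leaving out either library gave shares of 13.7 to 13.99% and ratios of 3.66 to 3.73. Equal totals, the second deposited table and leaving out mitochondrial and ribosomal DNA frames moved none of the 4 results beyond the spread between libraries, the third decimal of rho or 1.5 times a count; no 2-micron feature was in the table. Frames and genes with few reads, and copies that share sequence, limit what single values show. No paired analysis was possible because only 1 group was used and no test was made.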
